A study of Mus musculus with 58 samples.

Results

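The 78 mitochondrial ribosomal protein genes described here were chosen by name. They are the protein-coding genes in the deposited count table whose symbol is Mrpl or Mrps, a number and at most 1 further letter, out of 20712 protein-coding genes and 24537 genes in all. Of the 78, 51 encode proteins of the large subunit of the mitochondrial ribosome and 26 encode proteins of the small subunit. Mrps30 and Mrps18a carry small-subunit names but belong to the large subunit, where they are counted here. The remaining gene, Mrps36, kept its ribosomal name although its product is part of the 2-oxoglutarate dehydrogenase complex. No values were used in the choice, but the set was picked with other results of these livers known.

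The study profiled polyA RNA from whole livers of male C57BL6/J mice in 58 libraries. Every mouse received AAV8, a virus that enters liver cells, with the TBG promoter, which is active in hepatocytes. The vector carried Myc, a transcription factor that drives cell growth, or mApple, a red fluorescent protein that served as the control. For 30 days, weekends excepted, they then received 2 gavages a day of vehicle or of 45 mg/kg ruxolitinib, a drug that blocks the JAK1 and JAK2 kinases of cytokine signalling. Among old mice 14 livers had Myc and ruxolitinib, 11 Myc and vehicle, 9 mApple and ruxolitinib, and 8 mApple and vehicle. Young mice were 4 months old and had Myc and ruxolitinib in 10 livers or mApple and vehicle in 6, so the young groups differed in vector and drug together. Sequencing ran in 2 batches: old mice were 25 months of age in the first, which held 18 libraries, and 24 months in the second, which held 40. Batch and age among the old mice therefore cannot be told apart, and young mice were sequenced in the second batch alone. Each library is a separate liver by its label, and p-values measure the spread between these samples.

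Mitochondria keep a small genome that encodes a few subunits of the respiratory chain, and a dedicated ribosome translates them. The RNA of that ribosome comes from the mitochondrial genome, but all of its proteins are encoded in the nucleus, made in the cytosol and imported. Many have relatives in bacterial ribosomes, and others arose in the mitochondrial lineage. Hepatocytes are rich in mitochondria, and Myc is known as an activator of genes for ribosomes and for mitochondria.

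The libraries held 10.68 to 40.98 M (mega) counts in exons, with a median of 14.6 M. Levels are given as counts per M counts (CPM) after TMM scaling, which corrects for differences in RNA composition. All 8 hepatocyte markers were detected in every library, and Alb averaged 99005 CPM. Myc itself was 24.4 to 111 CPM (median 32.9) in old Myc ruxolitinib livers and 6.85 to 132 CPM (median 37.8) in old Myc vehicle livers, against 2.35 to 19.3 CPM (median 7.67) in old mApple ruxolitinib and 2.93 to 56.8 CPM (median 15.6) in old mApple vehicle livers. In young mice it was 36.1 to 61.5 CPM (median 50.9) with Myc and ruxolitinib and 4.23 to 22.4 CPM (median 8.28) with mApple and vehicle. Library 870, labelled old Myc vehicle, was the one at 6.85 CPM, inside the range of the mApple livers, and library 855, labelled old mApple vehicle, was the one at 56.8 CPM. Libraries 860 and 861, both old Myc ruxolitinib, had Kupffer cell and macrophage marker sums of 3778 and 2478 CPM, against a median of 337 CPM in their group. They also had the 2 lowest summed levels of the 78 genes, 1406 and 1232 CPM after TMM scaling. This rank among all 58 libraries depended on the scaling. As a share of all counts the 78 genes made up 0.188% and 0.182% in these 2 libraries, against 0.147% to 0.181% in old mApple vehicle livers. Within their own group they were still the 2 lowest by this share, against a group median of 0.214%. In bulk tissue, fewer cells of a type and less RNA per cell cannot be told apart.

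Some libraries also went against their batch labels. Outside the old Myc vehicle group, 5 of the 78 genes (Mrps14, Mrpl9, Mrps34, Mrpl33 and Mrps24) had no overlap between the second and the first batch among old livers, and all 5 were higher in the second. That is 6.41%, against 4.52% of 12870 genes with a mean of at least 1 CPM. Libraries 870 and 871, labelled old Myc vehicle and first batch, lay on the second-batch side for 5 of these 5 genes and for 69.9% and 80.2% of the 582 genes so separated. The other 4 first-batch libraries of that group lay there for 0 of 5. Library 1134, labelled young mApple vehicle and second batch, lay on the first-batch side for all 5 but on the second-batch side for 47.1% of the 582, and the other 15 young libraries lay on the second-batch side for the 5. Counts or medians without these libraries stand beside the comparisons that hold them, except for the fit between batches, which kept the labels as given.

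Among the 78 genes, all 78 passed the filter on low counts in every comparison, and the lowest raw count of any of them in a library was 42.5. Per kilobase of transcript, Mrpl12, whose product forms the stalk of the large subunit and in human cells binds the mitochondrial RNA polymerase, had the highest mean level, 85.4 CPM per kb over the 58 libraries. Mrpl52 (60.6 CPM per kb) and Mrpl30 (56.8 CPM per kb) followed, both in the large subunit. The lowest were Mrpl19 (3.43 CPM per kb), Mrps25 (5.90 CPM per kb) and Mrpl41 (6.18 CPM per kb). Mrps14 and Mrpl9 varied most between libraries, with SDs of log2 CPM of 0.59 and 0.55, and Mrpl40 and Mrpl10 varied least, with 0.15 and 0.16. Mrps14 and Mrpl9 were also among the 5 genes whose batches did not overlap.

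Summed over the 78 genes, mitochondrial ribosomal protein mRNA was higher in old Myc vehicle livers (1907 to 2474 CPM, median 2133) than in old mApple vehicle livers (1593 to 1937 CPM, median 1729), and 10 of 11 Myc vehicle livers lay above the highest mApple vehicle liver. Within the first batch 6 of 6 did so and within the second batch 4 of 5. Under ruxolitinib, old Myc livers had 1232 to 2470 CPM (median 2144) and old mApple livers 1500 to 2125 CPM (median 1960), and the groups overlapped. Young Myc ruxolitinib livers had 2106 to 2454 CPM (median 2269) and young mApple vehicle livers 1814 to 2115 CPM (median 2012), with 9 of 10 Myc livers above the highest mApple liver.

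**Figure D1:**
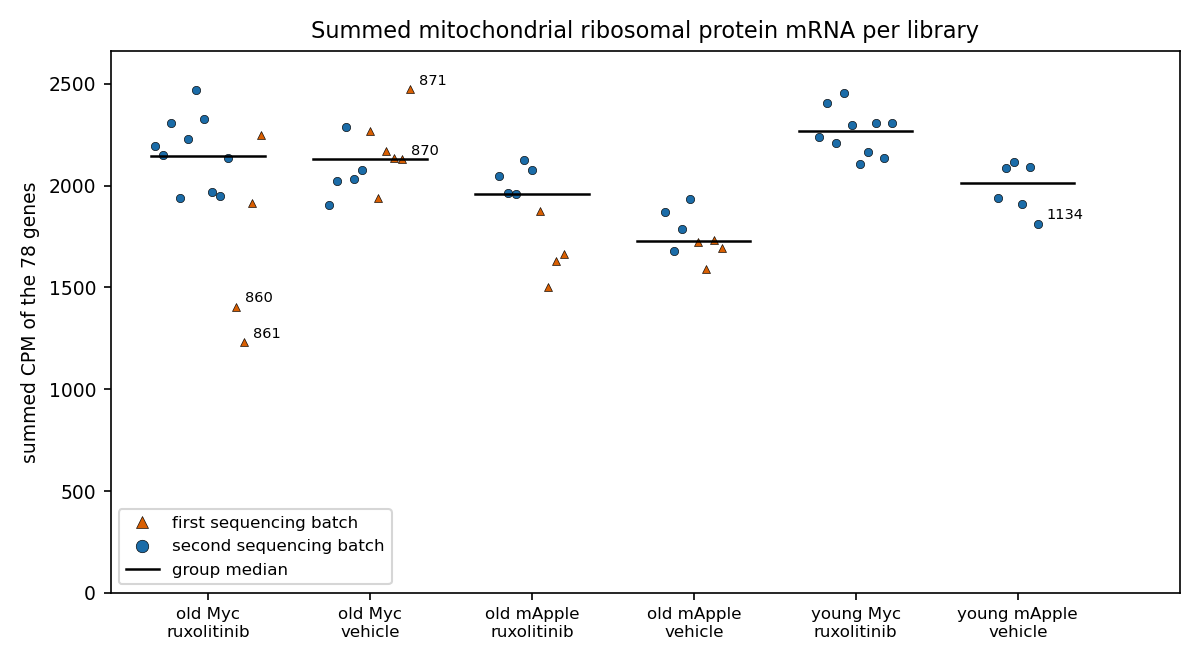
Summed CPM of the 78 mitochondrial ribosomal protein genes in each of the 58 libraries, by group; triangles are first-batch and circles second-batch libraries, and lines are group medians. The old Myc vehicle libraries run from 1907 to 2474 CPM and the old mApple vehicle libraries from 1593 to 1937 CPM. Libraries 860 and 861 are the lowest of all on this TMM scale. As a share of all counts they are the lowest of their group but not of all libraries.

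With Myc in old vehicle-treated livers, 34 of the 78 genes rose and 0 fell against mApple with vehicle (edgeR quasi-likelihood test, Benjamini-Hochberg adjusted p under 0.05 over 13547 genes). Of all tested genes 10.8% rose and 8.01% fell. The median log2 fold change of the 78 was 0.26, against -0.02 over all tested genes, and 74 of the 78 had a positive value. Both subunits took part: 23 of 51 large-subunit genes and 11 of 26 small-subunit genes rose. So did 20 of 46 genes classed here as having bacterial relatives and 14 of 31 classed as specific to mitochondria. The second class holds Mrps18a and Mrps18b, although Mrps18c of the same name family is in the first. By DESeq2 the count was 36, which included all 34, where 11.8% of all genes rose and 9.91% fell.

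The 5 largest increases were in Mrps27, Mrpl19, Mrpl30, Mrpl9 and Mrps30. Mrps27, a small-subunit protein with pentatricopeptide repeats, had 19.5 to 42.1 CPM (median 32.2) in Myc vehicle livers and 15.9 to 27.7 CPM (median 20.9) in mApple vehicle livers. The groups overlapped, with 9 of 11 Myc livers above the highest mApple liver, and the log2 fold change was 0.60 ± 0.12 (SE; adjusted p = 0.00138), a fold of 1.52. Mrpl19, in the large subunit, had 12.6 to 21.1 CPM (median 18.4) in Myc vehicle livers and 9.22 to 14.6 CPM (median 12.5) in mApple vehicle livers. There 10 of 11 Myc livers lay above all mApple livers, library 870 being the exception, and the log2 fold change was 0.55 ± 0.09 (adjusted p = 0.00024). Mrpl30 had 39.0 to 56.7 CPM (median 42.6) with Myc and 23.4 to 36.1 CPM (median 30.9) with mApple, and the groups did not overlap. Its log2 fold change was 0.54 ± 0.09 (adjusted p = 0.000409). Mrpl30 and Mrps35, a small-subunit gene, were the 2 genes of the 78 (2.56%) whose groups did not overlap over both batches, against 1.02% of all tested genes.

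Mrpl9 had 21.2 to 49.1 CPM (median 39.0) in Myc vehicle livers and 17.2 to 38.6 CPM (median 25.2) in mApple vehicle livers. Its groups overlapped over both batches together, with 6 of 11 Myc livers above all mApple livers, but not within either batch. The log2 fold change was 0.49 ± 0.12 (adjusted p = 0.00948). Mrps30, a large-subunit protein without a bacterial relative, had 18.6 to 29.0 CPM (median 24.5) with Myc and 15.8 to 20.6 CPM (median 17.6) with mApple, with a log2 fold change of 0.45 ± 0.08 (adjusted p = 0.000726). Mrpl12 rose less, to 70.9 to 103 CPM (median 94.6) with Myc, against 58.6 to 73.8 CPM (median 68.8) with mApple, a log2 fold change of 0.33 ± 0.07 (adjusted p = 0.00216). Mrps12, whose product sits at the decoding centre of the small subunit, had 15.2 to 26.1 CPM (median 20.1) with Myc and 13.3 to 22.3 CPM (median 16.9) with mApple. Only 3 of 11 Myc livers lay above all mApple livers, and its log2 fold change of 0.24 ± 0.11 did not pass (adjusted p = 0.135).

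The other 28 genes that rose had log2 fold changes of 0.22 (Mrpl37) to 0.44 (Mrpl54). Among the 44 that did not pass were Mrpl58 (log2 fold change 0.04, adjusted p = 0.702), which encodes a peptidyl-tRNA hydrolase built into the large subunit, and Mrps36 (0.15, adjusted p = 0.456); both were singled out after their values were seen. Other values moved with the same contrast, and their part in the result was not tested. The hepatocyte marker sum was 90568 to 166627 CPM (median 132603) in Myc vehicle livers and 133006 to 227068 CPM (median 175840) in mApple vehicle livers, with 4 of 8 markers lower. The endothelial marker sum was 144 to 282 CPM with Myc and 196 to 344 CPM with mApple, with 5 of 6 markers lower. All 6 proliferation markers rose, their sum being 14.5 to 112 CPM with Myc and 6.43 to 19.9 CPM with mApple.

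Within the first batch 10 genes rose (median log2 fold change 0.39), where 4.06% of all genes did, and within the second batch 6 rose (median 0.15), where 3.30% of all did. All of these were among the 34. Mrpl19, Mrpl30, Mrps27 and Mrps30 passed in each batch alone. Without libraries 870 and 871, a choice made after the data were seen, 35 genes rose, 31 of them among the 34, with a median of 0.22 and 13.0% of all genes higher. Scaling to library totals in place of TMM, also tried after the data were seen, moved the median of all genes to 0.12, and then 66 of the 78 rose, with a median of 0.40, where 21.6% of all genes rose.

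**Figure D2:**
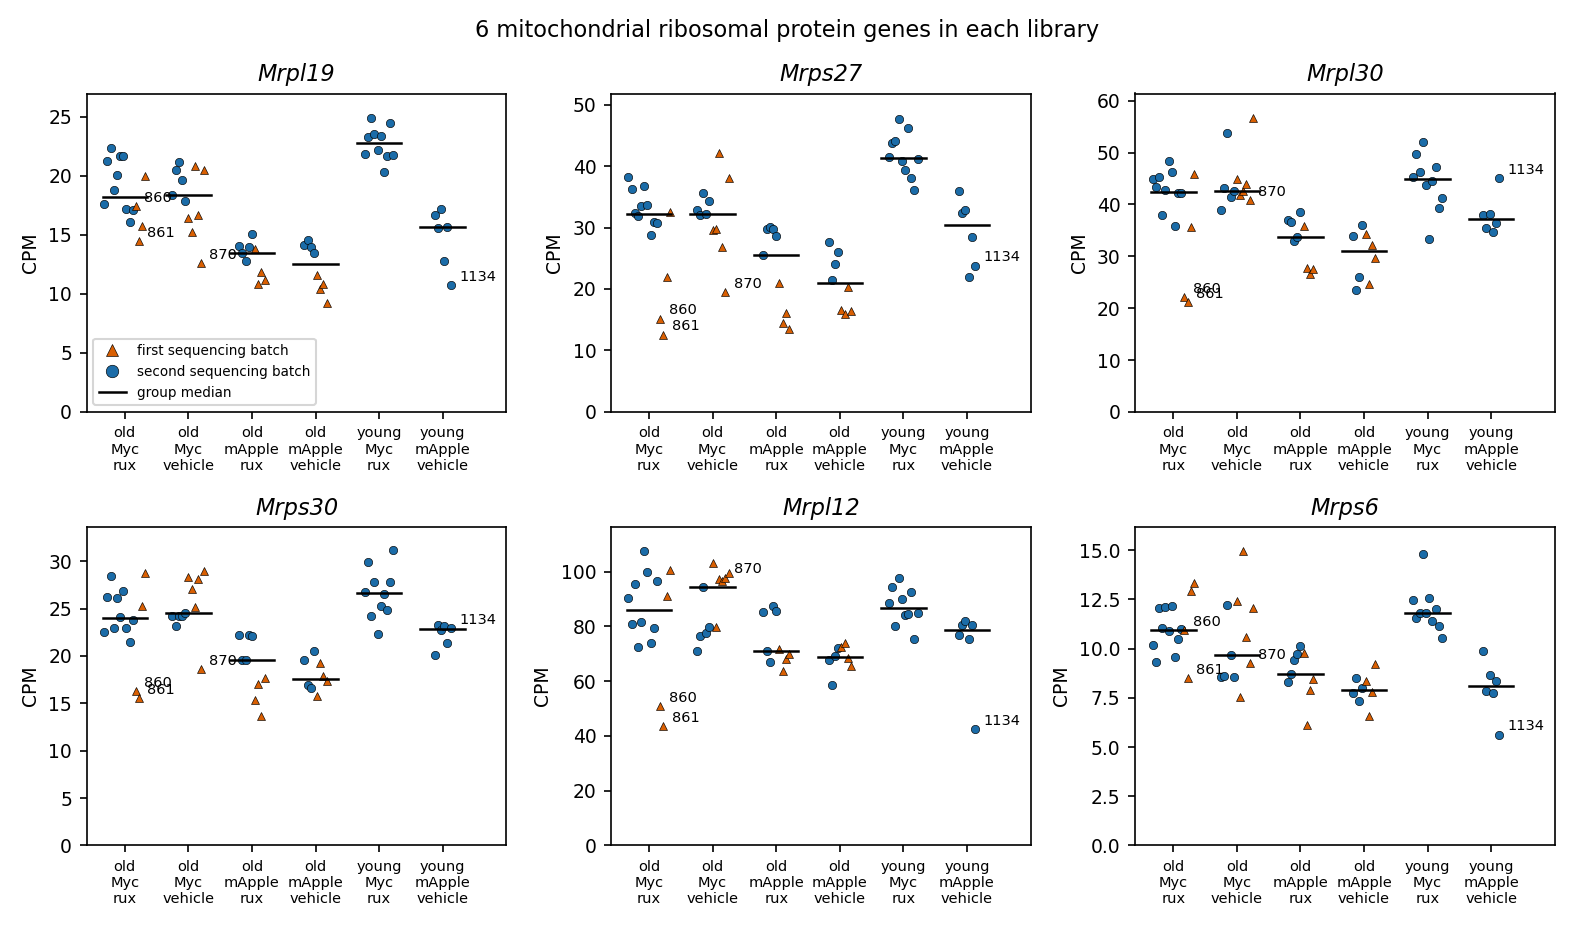
CPM of Mrpl19, Mrps27, Mrpl30, Mrps30, Mrpl12 and Mrps6 in each library, by group, with batches as triangles (first) and circles (second) and group medians as lines. Mrpl30 is at 39.0 CPM or more in every old Myc vehicle liver and at 36.1 CPM or less in every old mApple vehicle liver, and the first-batch libraries 860 and 861 are low for Mrps27, Mrpl30, Mrps30 and Mrpl12.

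The promoters of 4 of the 5 genes with the largest increase are printed because these genes moved together under a transcription factor that binds DNA at a known motif. Each is the 250 bases before the RefSeq start (GRCm38.p6), 5′ to 3′ on the strand of the gene, from the tables of RefSeq promoters. Capitals mark a match to 1 of 3 motifs searched on both strands: CACGTG, the E-box that Myc binds with its partner Max, the motif of NRF1, an activator of nuclear genes for mitochondrial proteins, and CCGGAAG, a motif of ETS factors. Mrpl19 has no entry. The Mrps27 stretch, chr13:99344536-99344785 on the plus strand, held CTTCCGG, the reverse complement of the ETS motif. The Mrpl9 stretch, chr3:94443086-94443335 on the plus strand, held the NRF1 motif. Mrpl30, chr1:37890227-37890476 on the plus strand, and Mrps30, chr13:118387253-118387502 on the minus strand, held none of the 3.
Mrps27: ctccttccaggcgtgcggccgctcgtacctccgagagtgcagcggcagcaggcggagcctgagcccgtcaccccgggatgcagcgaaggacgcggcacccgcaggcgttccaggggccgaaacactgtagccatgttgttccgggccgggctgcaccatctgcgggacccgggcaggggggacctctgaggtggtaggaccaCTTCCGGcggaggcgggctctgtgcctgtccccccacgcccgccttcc
Mrpl30: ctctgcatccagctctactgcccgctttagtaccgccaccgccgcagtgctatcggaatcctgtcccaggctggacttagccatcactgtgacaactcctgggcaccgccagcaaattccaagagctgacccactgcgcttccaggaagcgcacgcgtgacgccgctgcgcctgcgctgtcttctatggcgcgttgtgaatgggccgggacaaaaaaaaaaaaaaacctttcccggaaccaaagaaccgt
Mrpl9: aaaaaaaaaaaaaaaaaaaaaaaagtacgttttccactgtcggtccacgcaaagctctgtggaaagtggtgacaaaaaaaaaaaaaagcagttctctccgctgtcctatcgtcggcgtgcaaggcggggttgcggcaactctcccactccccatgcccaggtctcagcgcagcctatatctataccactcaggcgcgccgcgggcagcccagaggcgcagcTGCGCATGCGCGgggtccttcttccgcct
Mrps30: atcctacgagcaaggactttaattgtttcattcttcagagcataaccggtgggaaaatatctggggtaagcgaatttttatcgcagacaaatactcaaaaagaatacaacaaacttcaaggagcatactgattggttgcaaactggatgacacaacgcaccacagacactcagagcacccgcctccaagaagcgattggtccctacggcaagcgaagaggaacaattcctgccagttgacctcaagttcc

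Of the 78 genes, 69 had a promoter entry, and 43 of these held none of the 3 motifs. The E-box was in 5 of 69 (7.25%), against 7.93% of all 15920 protein-coding genes with an entry, searched over the same length. The NRF1 motif was in 5 of 69 (7.25%), against 1.66% of all, and in a stricter form with every letter fixed in 3 of 69 (4.35%), against 1.28% of all; the looser form was taken up after the stricter one had been counted. The ETS motif was in 18 of 69 (26.1%), against 10.6% of all. Of the 34 genes that rose with Myc under vehicle, 29 had an entry, and 2 of those held an E-box, 4 the longer NRF1 motif and 5 the ETS motif. Of the 40 genes with an entry that did not pass, 3 held an E-box, 1 the longer NRF1 motif and 13 the ETS motif. The shorter NRF1 form was in 1 of the 29. The 5 E-boxes are shown with 20 bases on each side, with the E-box in capitals, to let their surroundings be compared. They lie at chr4:107067003-107067048 (minus strand, Mrpl37), chr13:73330946-73330991 (plus strand, Mrpl36), chr4:155802825-155802870 (plus strand, Mrpl20), chr5:100798576-100798621 (plus strand, Mrps18c) and chr17:46646070-46646115 (plus strand, Mrpl2). Mrpl37 and Mrpl36 rose with Myc under vehicle, with log2 fold changes of 0.22 and 0.26, and the other 3 did not pass. A match describes these letters and shows no binding.
Mrpl37: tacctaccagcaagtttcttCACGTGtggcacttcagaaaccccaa
Mrpl36: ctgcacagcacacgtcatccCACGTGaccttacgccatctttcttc
Mrpl20: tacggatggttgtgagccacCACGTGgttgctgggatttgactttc
Mrps18c: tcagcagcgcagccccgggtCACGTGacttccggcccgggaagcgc
Mrpl2: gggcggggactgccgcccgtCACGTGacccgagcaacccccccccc

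Of the 78 genes, 27 (34.6%) start within 1000 bases of the start of a gene on the opposite strand that points away from them, against 9.26% of the 20712 protein-coding genes. Exons of 26 of the 78 share bases with another gene, and 10 share at least 20% of their exon bases. Strand was not used in counting, and there the reads of 1 gene cannot be told apart from those of the other. The 10 are Mrpl53, whose exon bases all lie within exons of Gm42688, Mrps18b (59.1%), Mrps25 (58.2%), Mrpl19 (39.2%, with Gcfc2), Mrpl24 (38.2%), Mrps6 (36.1%), Mrpl43 (27.5%), Mrpl13 (27.0%), Mrps27 (22.6%) and Mrpl33 (22.4%), each with the gene it overlaps most. Mrps30 shares 18.1% and Mrpl12 15.2%.

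Under ruxolitinib, 5 of the 78 genes rose and 0 fell in old Myc livers against old mApple livers, where 8.4% of 14010 tested genes rose and 5.96% fell. The 5, Mrpl19, Mrps6, Mrpl13, Mrps30 and Mrpl23, were all among the 34 that rose under vehicle. The median log2 fold change of the 78 was 0.04, against 0.01 over all tested genes, and 50 were positive. Thus 6.41% of the 78 rose, no more than the share of all genes.

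Mrpl19 had 14.4 to 22.4 CPM (median 18.2) in old Myc ruxolitinib livers and 10.9 to 15.1 CPM (median 13.4) in old mApple ruxolitinib livers, with 13 of 14 Myc livers above all mApple livers. Its log2 fold change was 0.48 ± 0.07 (adjusted p = 0.000106). Mrps6, a small-subunit gene with a bacterial relative, had 8.52 to 13.4 CPM (median 11.0) with Myc and 6.11 to 10.2 CPM (median 8.73) with mApple, with a log2 fold change of 0.32 ± 0.09 (adjusted p = 0.016). For both genes the groups overlapped. Mrpl13 (0.32 ± 0.09, adjusted p = 0.0236) is a large-subunit gene. Mrps30 (0.28 ± 0.09, adjusted p = 0.0309) lost its call without library 1141, 856, 864 or 868. Mrpl23, whose bacterial relative lies at the exit of the ribosomal tunnel, had a log2 fold change of 0.25 ± 0.08 (adjusted p = 0.0493) and lost its call in 17 of the 23 fits that left out 1 library. Mrpl12 (0.11, adjusted p = 0.557), Mrps12 (-0.16, adjusted p = 0.266) and Mrps27 (0.25, adjusted p = 0.143) did not pass.

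This comparison rested on libraries 860 and 861. Without them 15 of the 78 genes (19.2%) rose, including the 5, where 8.82% of all genes did, and the median was 0.11. Without them and 3 further libraries (864, 865 and 870, of which the first 2 are old mApple ruxolitinib) 12 rose (15.4%), where 8.90% of all genes did. In the first batch alone 0 of the 78 passed, as did 0 of all 13566 genes tested there, and in the second batch alone 7 rose (8.97%), where 7.13% of all genes did. Kupffer cell and macrophage marker sums were 142 to 3778 CPM in old Myc ruxolitinib livers and 145 to 899 CPM in old mApple ruxolitinib livers, with 0 of 8 markers passing, and all 6 proliferation markers rose. The part of these cells in the result was not tested.

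**Figure D3:**
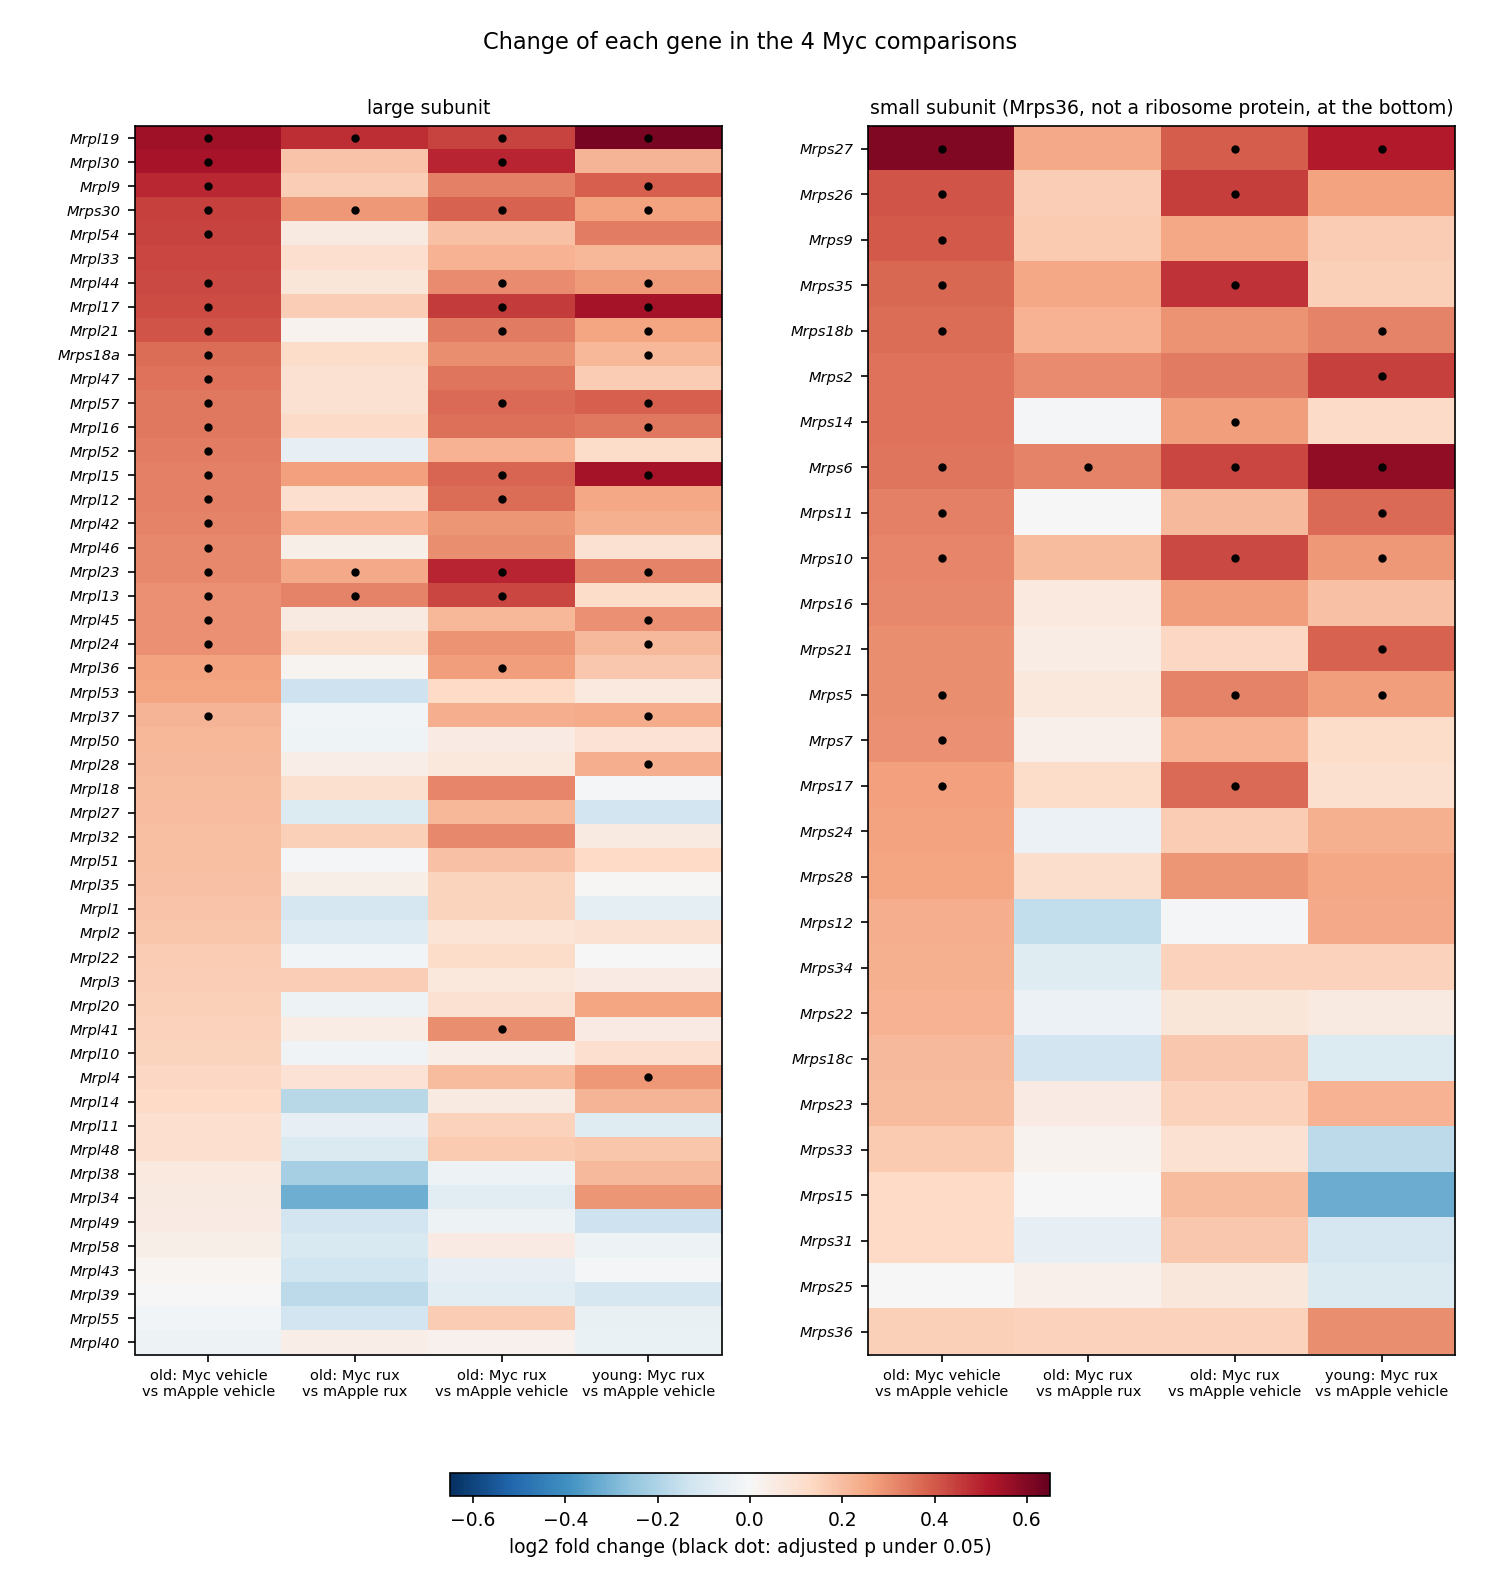
Log2 fold change of each of the 78 genes in 4 comparisons (columns), large subunit at left and small subunit at right, in order of the change with Myc under vehicle; black dots mark an adjusted p under 0.05. Dots number 34 in the first column, 5 in the second, 21 in the third and 24 in the fourth, and none marks a decrease.

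Whether the Myc effect differed between drug and vehicle was tested as an interaction in the 4 old groups, and 0 of the 78 genes passed, as did 0% of 14046 genes. At an unadjusted p under 0.05, 12 of the 78 were lower and 0 higher, against 2.64% lower and 2.59% higher among all genes, and DESeq2 also called 0. The median interaction was -0.20, against 0.0022 over all genes, and 75 of 78 values were negative, meaning a smaller Myc effect under ruxolitinib. For Mrpl21, a large-subunit gene and the one with the smallest p of the 78, it was -0.38 ± 0.12 (adjusted p = 0.816). For Mrps12 it was -0.41 ± 0.15 and for Mrpl12 -0.21 ± 0.15, both with an adjusted p of 0.816. Without libraries 860, 861, 870 and 871 the median was -0.08, with 60 of 78 negative, and first-batch livers alone gave -0.35, second-batch livers alone -0.07.

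Ruxolitinib by itself changed 0 of the 78 genes in either vector group. In old mApple livers 0.00738% of 13554 genes rose and 0.384% fell with ruxolitinib, and the 78 had a median log2 fold change of 0.07. At an unadjusted p under 0.05, 5 were higher and 0 lower, against 4.62% and 5.17% of all genes. The smallest p was for Mrpl36, a large-subunit gene (0.18 ± 0.06, adjusted p = 0.363). In old Myc livers 0.0436% of 13749 genes rose and 0.502% fell, and the 78 had a median of -0.10, with 66 negative. At an unadjusted p under 0.05, 3 of the 78 were lower, against 4.84% of all genes lower and 9.16% higher. DESeq2 called 0 in both. For Myc livers first-batch libraries alone had a median of -0.34 and second-batch libraries alone 0.07. Without libraries 860 and 861 the median was 0.03, so its sign rested on those 2 livers. Without libraries 870 and 871 it was -0.06, with 60 of 78 negative. For mApple livers the values by batch were -0.01 (first) and 0.15 (second).

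In young mice, Myc with ruxolitinib was set against mApple with vehicle, and 24 of the 78 genes rose and 0 fell, where 13.5% of 12808 genes rose and 14% fell. The median log2 fold change was 0.20, against -0.01 over all genes, and 63 of 78 were positive. The large subunit had 16 of 51 genes and the small subunit 8 of 26. For 6 genes (7.69%), the same share as among all tested genes (7.69%), the groups did not overlap: Mrpl19, Mrpl17 and Mrpl15 of the large subunit and Mrps6, Mrps27 and Mrps2 of the small subunit.

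Mrpl19 had 20.3 to 24.9 CPM (median 22.7) in young Myc ruxolitinib livers and 10.7 to 17.2 CPM (median 15.6) in young mApple vehicle livers, with a log2 fold change of 0.62 ± 0.09 (adjusted p = 4.44e-05). Mrps6 had 10.6 to 14.8 CPM (median 11.8) with Myc and ruxolitinib and 5.64 to 9.89 CPM (median 8.10) with mApple and vehicle, a log2 fold change of 0.58 ± 0.10 (adjusted p = 0.000285). Both were also among the 5 genes that rose under ruxolitinib in old livers. Mrpl15 had 66.2 to 75.1 CPM (median 69.3) in young Myc ruxolitinib livers and 39.1 to 54.0 CPM (median 49.4) in young mApple vehicle livers, with a log2 fold change of 0.54 ± 0.07 (adjusted p = 6.93e-06), the smallest p of the 78. Mrpl17 (0.54 ± 0.08, adjusted p = 3.85e-05), Mrps27 (0.52 ± 0.10, adjusted p = 0.000514) and Mrps2 (0.45 ± 0.06, adjusted p = 4.36e-05) followed. Mrpl12 (0.25 ± 0.11, adjusted p = 0.0882) and Mrps12 (0.25, adjusted p = 0.259) did not pass. Without library 1134, the lowest of the young mApple livers for Mrpl12, Mrpl19 and Mrps6, the median log2 fold change of the 78 was 0.13. The hepatocyte marker sum was 82234 to 110557 CPM in young Myc ruxolitinib livers and 126618 to 215038 CPM in young mApple vehicle livers, with 5 of 8 markers lower and 0 of 6 proliferation markers past the threshold. Its part in the result was not tested.

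The same pair of treatments in old mice of the second batch gave 21 genes that rose and 0 that fell, where 6.52% of 13761 genes rose and 4.35% fell. The median log2 fold change was 0.22, against -0.01 over all genes, and for 12 genes (15.4%) the groups did not overlap, against 6.34% of all genes. Mrpl23 had 16.5 to 20.3 CPM (median 18.6) in old Myc ruxolitinib livers and 11.1 to 13.7 CPM (median 13.5) in old mApple vehicle livers, and the groups did not overlap. Its log2 fold change was 0.49 ± 0.08 (adjusted p = 0.00318). Mrpl30 had 35.8 to 48.3 CPM (median 43.0) with Myc and ruxolitinib and 23.4 to 36.1 CPM (median 30.0) with mApple and vehicle (0.49 ± 0.10, adjusted p = 0.00985). Mrpl12 rose by 0.37 ± 0.10 (adjusted p = 0.0329), a call lost in 5 of the 14 fits that left out 1 library, and Mrps12 was at -0.01 (adjusted p = 0.97). The count of 21 rested on single mApple livers, of which there were 4. It was 8 without library 1137, 10 without 1135, 11 without 1136 and 16 without 1138, and the share of all genes that rose was 2.60% to 4.50% in these fits. Of the 24 genes that rose in young and the 21 that rose in old mice, 12 were shared, which is 50% of the young and 57.1% of the old list, where over all genes the shared calls were 35.3% and 67.9%. In the old comparison 4 of 6 proliferation markers were higher and 4 of 6 endothelial markers lower, and their part in it was not tested.

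The old and young effects of Myc with ruxolitinib were set against each other as an interaction, and 0 of the 78 genes passed, as did 0.287% of 13609 genes (0.103% upward and 0.184% downward). At an unadjusted p under 0.05, 7 were higher and 1 lower, against 6.72% and 7.35% of all genes, and DESeq2 called 0. The median interaction was 0.05. It was 0.11 without library 1134, 0.09 without 1138, 0.03 without 1130 or 1154 and 0.02 without 1133, with 0 genes past the threshold in each.

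Myc under vehicle in old mice and Myc with ruxolitinib in young mice, comparisons without a common library, shared 20 genes, 58.8% of the 34 and 83.3% of the 24. Over all genes the shared increases were 61.7% of the old and 52.2% of the young list. Mrpl19, Mrpl23, Mrps30 and Mrps6 rose in these and in old mice under ruxolitinib. Of the 78 genes, 75 had a higher log2 fold change under vehicle than under ruxolitinib in old mice, a count that the interaction above tests gene by gene.

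Old and young livers given Myc and ruxolitinib, all of the second batch, differed in 25 of the 78 genes. Of these 6 were higher and 19 lower in old livers, where 18.1% of 12760 genes were higher and 15.6% lower. The median log2 fold change was -0.05, with 49 of 78 negative; it was -0.13, with 64 negative, in a single fit of all 58 libraries, -0.08 without library 1154 and -0.03 without 1152. For 0 genes did the groups lack overlap, against 2.62% of all genes. Myc mRNA was itself lower in old livers (log2 fold change -0.70 ± 0.10, adjusted p = 3.33e-05). The endothelial marker sum was 73.7 to 214 CPM in old and 145 to 266 CPM in young livers, with 4 of 6 markers lower, and the neutrophil marker sum was 4.52 to 18.1 CPM in old and 2.07 to 5.26 CPM in young livers. The part of Myc level and of these cells in the differences was not tested.

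Among the genes lower in old livers, Mrpl34, of the large subunit, had 12.9 to 22.3 CPM (median 17.0) in old and 21.4 to 28.3 CPM (median 25.2) in young Myc ruxolitinib livers. The groups overlapped, with 8 of 10 old livers below all young ones, and the log2 fold change was -0.50 ± 0.09 (adjusted p = 0.000268). Mrpl38, of the large subunit, had 36.0 to 55.1 CPM (median 42.9) in old and 47.5 to 71.0 CPM (median 58.8) in young livers (-0.40 ± 0.07, adjusted p = 0.000418). Mrps22, a small-subunit gene mutated in an inherited human mitochondrial disease, had 17.0 to 23.4 CPM (median 19.3) in old and 20.6 to 27.9 CPM (median 25.5) in young livers (-0.34, adjusted p = 0.000218). Mrps27 had 28.8 to 38.2 CPM (median 33.0) in old and 36.1 to 47.6 CPM (median 41.4) in young livers (-0.33 ± 0.06, adjusted p = 0.000171). Mrps36 was lower by a log2 fold change of -0.33 (adjusted p = 0.00795), Mrpl19 by -0.24 (adjusted p = 0.00437) and Mrps12 by -0.16 ± 0.06 (adjusted p = 0.0464), a call lost in 12 of the 20 fits that left out 1 library.

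The 6 genes that were higher in old livers went against the majority. Mrpl27, whose bacterial relative reaches the peptidyl transferase centre, had 23.0 to 38.1 CPM (median 26.0) in old and 16.6 to 25.5 CPM (median 19.3) in young livers, with 6 of 10 old livers above all young ones (0.41 ± 0.09, adjusted p = 0.00176). Mrpl23 had 16.5 to 20.3 CPM (median 18.6) in old and 12.6 to 17.2 CPM (median 14.5) in young livers (0.34 ± 0.06, adjusted p = 0.000401). Mrpl18 (0.30, adjusted p = 0.0102) and Mrps18c (0.23, adjusted p = 0.0121) kept their calls in every fit that left out 1 library. Mrpl52 (0.22, adjusted p = 0.0348) lost it in 9 of 20 such fits and Mrps26 (0.22, adjusted p = 0.0366) in 10 of 20. Mrpl12 did not differ past the threshold (0.01, adjusted p = 0.95).

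**Figure D4:**
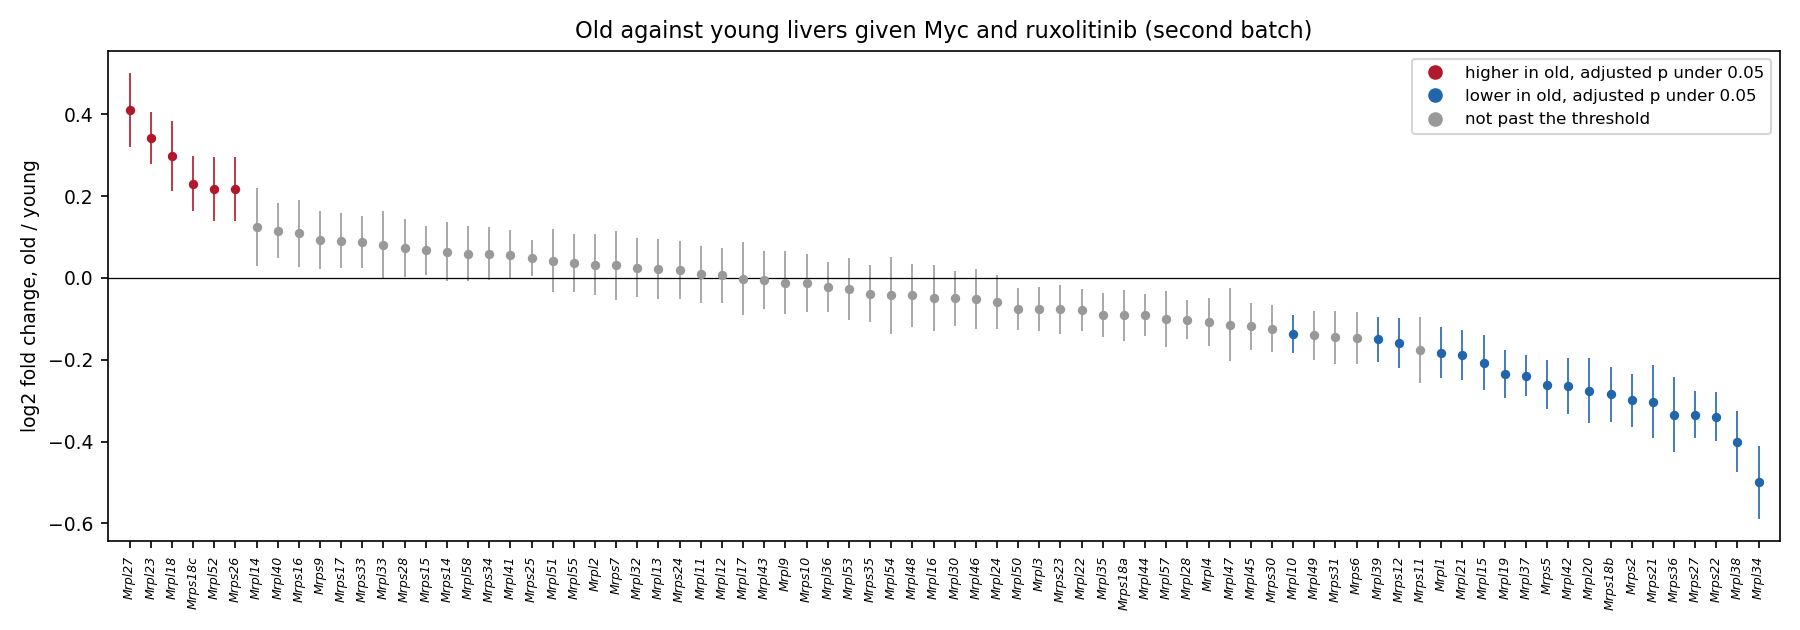
Log2 fold change, old over young, of each of the 78 genes in livers given Myc and ruxolitinib (second batch, 10 livers each), with the SE as bars. The 6 genes in red are higher and the 19 in blue lower in old livers at an adjusted p under 0.05, from 0.41 for Mrpl27 to -0.50 for Mrpl34.

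In mApple vehicle livers of the second batch, 0 of the 78 genes differed between old and young mice, where 1.1% of 13155 genes did (0.859% higher and 0.243% lower in old). At an unadjusted p under 0.05, 15 were lower and 0 higher, against 6.64% and 11.1% of all genes. The median log2 fold change was -0.10, against 0.0003 over all genes. DESeq2 called 1 lower, Mrpl1 of the large subunit, where 1.62% of all genes were lower. Without library 1134 the median of the 78 was -0.15, with 72 of 78 negative. For Mrps35 and Mrpl35 (2.56% of the 78) the groups did not overlap, against 5.54% of all genes. Mrps35 had 13.3 to 20.56 CPM (median 18.6) in old and 20.60 to 26.6 CPM (median 22.8) in young mApple vehicle livers. Mrpl35, of the large subunit, had 17.5 to 22.5 CPM (median 21.0) in old and 22.8 to 28.2 CPM (median 23.7) in young livers. Neither passed (adjusted p = 0.182 for Mrps35 and 0.253 for Mrpl35). Neutrophil markers were higher in old livers for 3 of 3 tested, with a sum of 11.8 to 28.9 CPM in old and 2.84 to 6.30 CPM in young livers. Their part in these values was not tested.

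Within the 3 Myc groups, the change of each gene per unit of log2 Myc level was fitted with group and batch in the model. In all 35 livers 11 of the 78 genes went up with Myc and 6 went down, where 5.25% of 14408 genes went up and 4.07% down. Mrps2 had the steepest rise, 0.36 ± 0.06 on the log2 scale per unit (adjusted p = 0.000175), and Mrps14 the steepest decline, -0.31 ± 0.07 (adjusted p = 0.00311). These calls rested on a few libraries. Without libraries 870 and 871, 40 genes went up and 0 down, with a median slope of 0.32 in place of 0.03; of all genes 15.2% then went up and 16.7% down. Without libraries 860, 861, 870 and 871 only 1 gene, Mrps9, passed, where 0.68% of all genes went up and 0.398% down, and the median was 0.10. In the first batch alone, in the second batch alone and in young Myc livers alone 0 passed. Over the 78 genes the slope had a Spearman correlation of -0.67 with the difference between batches, a description over genes that share the same libraries.

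Between batches of old livers, with group in the model, 42 of the 78 genes were higher and 9 lower in the second batch, 65.4% against 67.2% of 14046 genes. Over all genes 31.9% were higher and 35.4% lower. The median log2 difference of the 78 was 0.17, against -0.02 over all genes. Mrps14, a small-subunit gene with a bacterial relative, was highest, at 1.13 ± 0.12, and Mrps15, also of the small subunit, lowest, at -0.52. In libraries 870 and 871 Mrps14 was at 24.4 and 21.1 CPM, whereas the other 4 first-batch Myc vehicle livers had 9.8 to 10.9 CPM. Mrps15 went the other way, with 21.8 and 24.4 CPM in the same 2 libraries and 29.3 to 36.3 CPM in the other 4. Library 1134 had 45.3 CPM of Mrps15, above every other library, and 14.4 CPM of Mrps14.

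**Figure D5:**
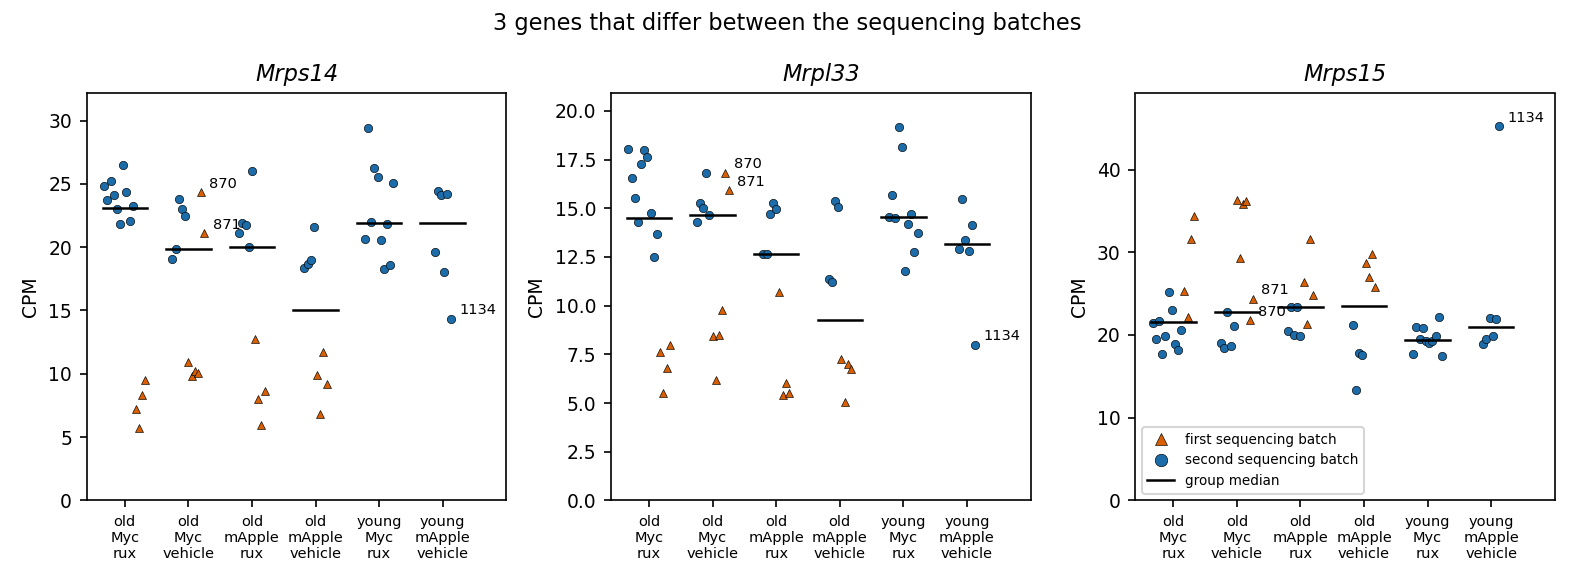
CPM of Mrps14, Mrpl33 and Mrps15 in each library, by group; triangles are first-batch and circles second-batch libraries by their labels. Libraries 870 and 871, labelled first batch, lie with the second batch (24.4 and 21.1 CPM of Mrps14), and library 1134, labelled second batch, has 45.3 CPM of Mrps15.

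Other genes of mitochondrial gene expression were described from lists written for this comparison. With Myc under vehicle in old livers, the genes that rose were 16 of 23 tested genes of protein import into mitochondria, 9 of 17 mitochondrial tRNA synthetases, 7 of 17 mitochondrial translation factors, 7 of 14 genes of mitochondrial transcription and DNA maintenance, 8 of 26 assembly factors of the mitochondrial ribosome and 2 of 5 of its proteins with other names. In each of these lists 0 fell. Of all tested genes 10.8% rose and 8.01% fell. Under ruxolitinib the counts were 5 of 23 (with 1 lower), 5 of 17, 0 of 17, 0 of 14, 3 of 26 and 1 of 5. There 8.4% of all genes rose and 5.96% fell. In young mice given Myc with ruxolitinib the counts were 15, 9, 5, 6, 10 and 1, where 13.5% of all genes rose and 14% fell. Noa1, a GTPase that assembles the small subunit, had log2 fold changes of 0.87 ± 0.11 (adjusted p = 5.64e-05) under vehicle, 0.58 ± 0.13 (adjusted p = 0.00331) under ruxolitinib and 1.03 ± 0.08 (adjusted p = 2.96e-08) in young mice. Ears2, the mitochondrial glutamyl-tRNA synthetase, had 0.94 ± 0.10 (adjusted p = 1.72e-05), 0.60 ± 0.11 (adjusted p = 0.000986) and 1.04 ± 0.11 (adjusted p = 1.24e-06). Ptcd3, a small-subunit protein, had 0.59 ± 0.13 (adjusted p = 0.00389), 0.40 ± 0.11 (adjusted p = 0.0207) and 0.63 ± 0.08 (adjusted p = 9.03e-06). These 3 were named for being among the smallest p of their lists, so their changes do not stand for the lists.

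Of the translation factors, Tufm and Gfm2 are given here, and they do not stand for their list. Gatb of that list had log2 fold changes of 0.45 to 0.54 with Myc under vehicle in the fits that left out 1 library. Tufm, the mitochondrial elongation factor Tu, had a log2 fold change of 0.34 ± 0.09 (adjusted p = 0.0107) with Myc under vehicle and 0.02 ± 0.10 (adjusted p = 0.902) under ruxolitinib, and Gfm2, a ribosome recycling factor, had 0.39 ± 0.08 (adjusted p = 0.00313) and 0.08 ± 0.12 (adjusted p = 0.717). Tomm20, a receptor of the outer membrane import pore, had 0.60 ± 0.08 (adjusted p = 7.93e-05) under vehicle and 0.52 ± 0.10 (adjusted p = 0.00143) under ruxolitinib. Between old and young Myc ruxolitinib livers, Noa1 was at -0.64 ± 0.08 (adjusted p = 5.59e-06), Ptcd3 at -0.46 ± 0.06 (adjusted p = 2.35e-05) and Tufm at -0.35 ± 0.05 (adjusted p = 1.09e-05). In that comparison 8 of 23 import genes, 6 of 17 tRNA synthetases, 6 of 17 translation factors and 4 of 14 transcription and DNA maintenance genes were lower in old livers. Of all genes 15.6% were lower and 18.1% higher. Genes of these lists that were higher, and the remaining lists, are not given here.

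Genes for proteins of the cytosolic ribosome, which makes the imported proteins, had larger median changes. With Myc under vehicle in old mice 77 of 81 tested genes rose, with a median log2 fold change of 0.72, and under ruxolitinib 75 of 81, with a median of 0.52. In young mice given Myc with ruxolitinib 81 of 81 rose, with a median of 0.79. Nuclear genes of the respiratory chain, whose products join those made by the mitochondrial ribosome, rose in 11 of 78 tested cases under vehicle (median 0.17) and in 1 of 79 under ruxolitinib, where 5 fell (median -0.10). In young mice 15 of 78 rose and 2 fell (median 0.13). Of all tested genes 10.8% rose with Myc under vehicle, 8.4% under ruxolitinib and 13.5% in young mice, and in the same order 8.01%, 5.96% and 14% fell.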

How the data were processed

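RNA was sequenced from 58 whole livers in 2 batches, per the labels' protocols as paired reads of 75 bp from polyA RNA. The submitters' processing notes name STAR, HOMER and the build GRCm38 (mm10), with tool versions not given in the sources used here. The deposited values are expected counts (estimated counts) per gene, made by the authors; per the file headers they are raw counts over exons, without strand, for 1 transcript per symbol. Values move in steps of 0.5, and 29.9% are not whole, so they were rounded. Transcript length is the value that the deposited table gives.

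Each comparison was fitted over its groups with edgeR 4.0.16 (quasi-likelihood, TMM, filterByExpr with a minimum count of 10, batch as a covariate in fits that span both), two-sided, with Benjamini-Hochberg adjustment over all tested genes and a threshold of 0.05; the SE is the absolute log2 fold change divided by the square root of F. Depth was 10.68 to 40.98 M counts, and its precision is that of the SEs. Of 164 library pairs from the same group and batch, 0 held identical values. DESeq2 1.42.0, R 4.3.3 and Python 3.11.15 were also used, and the steps were tested on simulated counts. Exon overlap was read from GENCODE on GRCm38.

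The genes, the lists and the tests were chosen with earlier results of these data known. Genes named in each comparison are Myc, Mrpl12, Mrps12, the 5 largest increases and the 5 largest decreases past the threshold, members against the majority, and up to 3 genes of each pathway list by p, of which a part is printed. Alternatives were RLE size factors, DESeq2, omitting the filter or the batch term, single batches, a single fit of all 58 libraries, and leaving out single libraries or 5 of them (860, 861, 864, 865 and 870). Library totals and leaving out libraries 860 and 861, 870 and 871, or all 4 were added after the data were seen, as were slopes on Myc level in young livers and in the first batch alone. Proteins were not used here.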

Additional observations from a re-analysis of the deposited data

Results flagged for a closer look

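Library 1134, labelled young mApple vehicle, stood apart from the other 5 libraries of its group in 10 of the 32 genes examined. It was the lowest for Mrpl12 (42.36 CPM, against 75.5 to 82.2 CPM in the others), Mrpl33 (7.999 CPM), Mrpl52 (14.54 CPM), Mrpl53 (9.454 CPM), Mrps12 (7.726 CPM), Mrps24 (13.45 CPM) and Mrps34 (11.09 CPM). It was the highest for Mrpl13 (32.36 CPM), Mrpl30 (45.09 CPM) and Mrps15 (45.27 CPM, against 19.0 to 22.0 CPM in the others). Its root mean square deviation from its group over the 78 genes was 0.57 on the log2 scale, against a median of 0.17 over the other 57 libraries. Library 856 was far above the other old mApple ruxolitinib libraries for Mrpl38 (66.17 CPM). Among young Myc ruxolitinib libraries, 1121 was far below the others for Mrps35 (19.83 CPM) and 1122 far above them for Mrps6 (14.82 CPM). In all, 13 of 132 groups of values held such a library, and chance marks about 1 in 20 groups when they are independent. Library 1134 gave 10 of the 13, over genes of the same liver, so these are not independent. The rule was not applied to old Myc vehicle (11 libraries) or old Myc ruxolitinib livers (14 libraries), so libraries 860, 861, 870 and 871 were not examined by it.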

How the results depend on the processing

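No paired analysis was possible because each library has a number of its own that groups do not share. The count of genes that rose with Myc under vehicle in old mice was 10 in the first batch alone, 6 in the second and 66 with library totals. The shares of all genes that rose were 4.06%, 3.30% and 21.6%. With 1 library left out the count ran from 27 to 38. Under ruxolitinib the count was 0 in the first batch, 3 without a batch term, 9 in a single fit of all 58 libraries, 12 without 5 libraries, 15 without libraries 860 and 861 and 18 with library totals. In the same order 0%, 4.75%, 12.9%, 8.90%, 8.82% and 14.6% of all genes rose. With 1 library left out the count ran from 3 to 7, with 0 to 1 genes lower and a median of -0.0024 to 0.081. The median in the first batch was -0.0073. For Myc with ruxolitinib against mApple with vehicle, library totals gave 40 in old and 55 in young mice, where 11.6% and 31.0% of all genes rose. Leaving out 1 old library gave 8 to 23. Library totals moved the median of all genes by 0.14 with Myc under vehicle, 0.13 under ruxolitinib, 0.18 in the young and 0.10 in the old comparison of Myc with ruxolitinib against mApple with vehicle, and 0.10 with ruxolitinib in old mApple livers. The count with age in Myc ruxolitinib livers was 3 higher in a single fit of all 58 libraries, where 15.6% of all genes were higher. In mApple vehicle livers 1 was lower by DESeq2, where 1.62% of all genes were lower, and the median ran from -0.15 to -0.083 with 1 library left out.

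Slopes on Myc level depended most on the libraries used. The counts, up then down, were 0 and 0 in the first batch, in the second batch, in young Myc livers and without 5 libraries (median -0.018). The shares of all genes there were at most 0.31% up and 0.245% down. The counts were 1 and 0 without the 2 libraries farthest from the median Myc level (870 and 867) and without libraries 860, 861, 870 and 871, 40 and 0 without 870 and 871, 6 and 1 in old Myc livers, and 10 and 2 without a filter. The shares of all genes, up then down, were 0.476% and 0.149% without the 2 farthest libraries and 0.68% and 0.398% without 860, 861, 870 and 871. They were 15.2% and 16.7% without 870 and 871, 3.18% and 1.99% in old Myc livers and 3.43% and 2.49% without a filter. With 1 library left out the median slope ran from 0.011 to 0.13.

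Some values that did not pass the threshold changed sign, and the cause was not tested. In old Myc livers with ruxolitinib against vehicle, the median was 0.068 in the second batch, 0.026 without 860 and 861, 0.025 without 5 libraries and 0.052 without 860, 861, 870 and 871. In the same order Mrpl12 was 0.14, 0.11, 0.11 and 0.11, and Mrps12 was 0.069, 0.0084, 0.021 and 0.044, while Myc was 0.028 without 860 and 861. With 1 library left out Mrpl12 ran from -0.12 to 0.011 and Myc from -0.15 to 0.025. In old mApple livers with ruxolitinib against vehicle, the first batch gave a median of -0.0094 and Mrpl12 at -0.033. Mrps12 with Myc under vehicle was -0.0598 in the second batch. In old Myc ruxolitinib against mApple vehicle livers Mrps12 was 0.095 with library totals, 0.028 without a filter, 0.10 in the single fit and -0.029 to 0.046 with 1 library left out. With age in Myc ruxolitinib livers Mrpl12 was -0.00165 by DESeq2, -0.0013 with RLE, -0.0089 with library totals, -0.081 in the single fit and -0.029 to 0.035 with 1 library left out. With age in mApple vehicle livers Mrps12 was -0.076 in the single fit and -0.085 to 0.15 with 1 left out. The interaction with age had a median of -0.020 with library totals, and Myc ran from -0.65 to 0.21 with 1 left out.

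Among slopes, Mrps12 was 0.061 in the second batch, 0.010 in young livers, 0.17 without the 2 farthest libraries, 0.42 without 870 and 871, 0.18 without all 4, and -0.055 to 0.17 with 1 left out. Without 870 and 871 the slopes of Mrpl14 (0.18), Mrpl33 (0.19), Mrpl53 (0.32), Mrps14 (0.21), Mrps24 (0.23) and Mrps34 (0.11) also turned positive. Mrpl53 was 0.065 in the second batch, 0.019 without the 2 farthest and 0.078 without all 4, Mrpl33 was 0.095 without all 4, Mrps14 was 0.035 in young livers, and Mrpl12 was -0.00077 without 860 and 861.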
